A study of Mus musculus with 6 samples.

Results

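RNA-Seq counts were examined for 8 genes of lysosomal sphingolipid breakdown in chronic stroke infarcts and contralateral cortices of mice. The genes were chosen by name, with earlier results of these data known. They are *Psap* and *Gm2a*, which encode activator proteins, and *Arsa*, *Galc*, *Glb1*, *Hexa*, *Gla*, and *Smpd1*, which encode hydrolases. They make up 8 of the 46078 genes in the count tables, and all 8 were among the 15554 genes that passed the filter on low counts and were tested.

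Sphingolipids are membrane lipids built on ceramide, and myelin is rich in galactosylceramide and its sulfated form, sulfatide. They are taken apart inside the lysosome one headgroup at a time by soluble hydrolases, most of which need a small protein that lifts the lipid out of the membrane. These activators are the saposins, which are cut from the precursor prosaposin, and the GM2 activator. Inherited loss of the enzymes or activators causes lysosomal storage diseases of the brain, among them metachromatic leukodystrophy, Krabbe disease, Tay-Sachs disease, and Niemann-Pick disease.

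Tissue came from male wild-type C57BL/6J mice. The labels give an age of 3 months and a time point of 7 weeks, which the study counts from stroke surgery. Stroke was made by the DH model, in which the distal middle cerebral artery is cauterized and the mouse is then kept in low oxygen, and which places the infarct over the somatosensory cortex. One group held 3 infarcts, recognized by eye and cut out by hand, and the other 3 pieces of cortex from the matching place in the opposite hemisphere. Both groups therefore came from mice that had had a stroke and hypoxia. The labels name no drug treatment and do not say which infarct and which cortex came from the same mouse. The question of the comparison was how gene expression in the chronic infarct differs from that of cortex outside it, in tissue where the study examined lipids derived from myelin.

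Counts on genes totaled 12146959 to 13427057 per infarct library and 11943570 to 19933962 per contralateral library. Expression is given as TMM-scaled CPM, which are counts divided by the library size, and differences as log2 fold changes from edgeR's quasi-likelihood test. All 8 neuronal marker genes were detected in contralateral cortices, where their summed level was 9045 to 9883 CPM, and all 8 were downregulated in infarcts, where it was 642 to 1662 CPM. With libraries scaled by their totals instead of TMM, the median log2 fold change over all tested genes moved by 0.20, and each fold change given is relative to the TMM scale.

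Of the 8 genes, 6 were upregulated in infarcts and 0 were downregulated, with an edgeR adjusted *p* below 0.05 and more than a 2-fold difference required for a call. Among all tested genes, 25.7% were upregulated and 20.9% downregulated by the same rule. On the adjusted *p* alone, 7 of the 8 genes were higher in infarcts, compared with 34.2% of all tested genes. The infarct values all lay above the contralateral values for the same 7 genes, compared with 37.6% of all tested genes. The median log2 fold change was 2.30 over the 8 genes and 0.03 over all tested genes. The 6 upregulated genes were *Hexa*, *Gla*, *Psap*, *Galc*, *Gm2a*, and *Glb1*. *Arsa* passed the adjusted *p* but not the fold change threshold, and *Smpd1* passed neither. Counts were high enough to measure each gene in every library, from 110 for *Gla* in contralateral cortex 3 to 68716 for *Psap* in infarct 1.

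**Figure D1:**
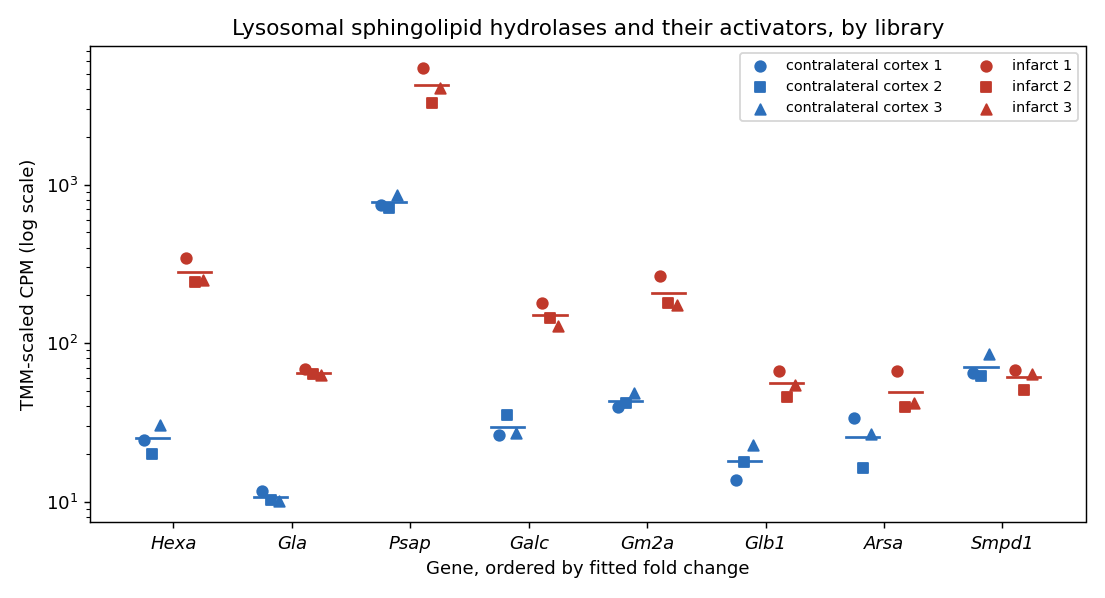
Expression of the 8 genes in each library as TMM-scaled CPM on a log axis, with contralateral cortices in blue, infarcts in red, and a bar at the mean of each region. The 3 infarct values lie above the 3 contralateral values for every gene except *Smpd1*, and infarct 1 is the highest infarct for all 8 genes.

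Promoter sequence is shown for the genes that carry a shared motif, because lysosomal genes as a class are known for E-box motifs bound by MiT/TFE transcription factors and because most of these 8 genes moved together. The 250 bases before the RefSeq start of each gene were searched on both strands for TCACGTG, which contains the palindromic E-box CACGTG. It was present for 3 of the 8 genes, *Arsa*, *Gla*, and *Glb1*, compared with 968 of 27025 genes with a promoter in the table (3.58%). The E-box alone was present for the same 3 genes and for 6.86% of all genes. A longer palindrome, which extends TCACGTG on both sides, was also searched. This stricter motif was present for 0 of the 8 genes, compared with 73 of 27025 genes (0.27%). The matched motif began 16 bases before the start of *Arsa*, 227 and 194 bases before that of *Gla*, and 48 bases before that of *Glb1*, counted to the first base of CACGTG. A stretch of 100 bases of each promoter is given 5′ to 3′ on the strand of the gene, from RefSeq on GRCm38.p6, with the matches in capitals. The other 5 genes held no match in this window.
*Arsa*, chr15:89477425-89477524, minus strand: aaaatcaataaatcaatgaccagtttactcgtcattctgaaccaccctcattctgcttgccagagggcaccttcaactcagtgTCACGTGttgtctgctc
*Gla*, chrX:134601156-134601255, minus strand: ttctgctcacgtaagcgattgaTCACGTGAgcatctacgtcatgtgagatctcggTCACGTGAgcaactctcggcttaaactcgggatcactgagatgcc
*Glb1*, chr9:114400978-114401077, plus strand: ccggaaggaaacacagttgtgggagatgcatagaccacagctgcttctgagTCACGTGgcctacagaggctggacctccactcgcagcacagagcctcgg
In *Gla* the match occurs at 2 places and reads the same on both strands with its last base. A match describes the letters only, and binding or control by MiT/TFE factors was not tested. The genes with a match include *Gla*, whose fold change was among the largest of the 8, and *Arsa*, whose fold change was the smallest of those that passed the adjusted *p*, while *Hexa* and *Psap* had no match.

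*Psap* (ENSMUSG00000004207, GRCm38 chromosome 10, 60277627 to 60302597, plus strand) encodes prosaposin, the precursor of the saposins that serve galactosylceramidase, arylsulfatase A, and other hydrolases. It had 5473, 3286 and 4060 CPM in infarcts 1, 2 and 3 and 746, 715 and 866 CPM in contralateral cortices 1, 2 and 3. The regions were far apart, and the infarcts differed more among themselves than the contralateral cortices did, at 4273 ± 1109 CPM (mean ± SD, *n* = 3) against 776 ± 79.6 CPM. The log2 fold change was 2.46 ± 0.23 (SE, edgeR adjusted *p* = 1.2e-05). Per kilobase of transcript, *Psap* ranked 20 among 45229 genes in infarcts and 103 in contralateral cortices, so it was an abundant transcript in both regions.

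*Gm2a* (ENSMUSG00000000594, chromosome 11, 55098115 to 55113029, plus strand) encodes the GM2 activator, which presents the ganglioside GM2 to β-hexosaminidase A. Its expression was 264, 179 and 175 CPM in the 3 infarcts and 39.5, 42.1 and 48.2 CPM in the 3 contralateral cortices. Each infarct was above each contralateral cortex, with infarcts 2 and 3 close together and infarct 1 higher. The log2 fold change was 2.25 ± 0.19 (SE, edgeR adjusted *p* = 6.6e-06).

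*Arsa* (ENSMUSG00000022620, chromosome 15, 89472476 to 89477425, minus strand) encodes arylsulfatase A, which removes the sulfate from sulfatide. It had 66.5, 39.6 and 42.0 CPM in infarcts against 33.8, 16.3 and 26.9 CPM in contralateral cortices. The regions did not overlap, but contralateral cortex 1 came close to infarct 2, and the spread was wide in both regions, at 49.4 ± 14.9 CPM and 25.7 ± 8.81 CPM. The log2 fold change was 0.94, with a 95% confidence interval of 0.26 to 1.62 (adjusted *p* = 0.0207, edgeR), which corresponds to a 1.92-fold difference with an interval of 1.20 to 3.07. The call turned on single libraries. Without infarct 2, infarct 3 or contralateral cortex 1 the log2 fold change was 1.10, 1.06 or 1.18 and the gene was called upregulated, and without contralateral cortex 2 or 3 the adjusted *p* rose to 0.0580 or 0.0586 (edgeR). Exons of *C230037L18Rik*, on the opposite strand, overlie 18.8% of the exon bases of *Arsa*, and that gene had 5 to 33 counts per library.

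*Galc* (ENSMUSG00000021003, chromosome 12, 98202294 to 98259459, minus strand) encodes galactosylceramidase, the enzyme that acts after arylsulfatase A and splits galactosylceramide. Its expression was 179, 145 and 128 CPM in infarcts against 26.3, 35.0 and 27.0 CPM in contralateral cortices. Even the lowest infarct was well above the highest contralateral cortex. The log2 fold change was 2.35 ± 0.18 (SE, edgeR adjusted *p* = 3.8e-06). The myelin pathway thus held a gene with a clear upregulation, *Galc*, directly after one whose difference was smaller and less certain, *Arsa*.

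*Glb1* (ENSMUSG00000045594, chromosome 9, 114401076 to 114474898, plus strand) encodes lysosomal β-galactosidase, which removes galactose from the ganglioside GM1. It had 66.7, 46.0 and 54.2 CPM in infarcts against 13.8, 17.8 and 22.7 CPM in contralateral cortices. No values overlapped. Its log2 fold change of 1.62 ± 0.22 (SE, edgeR adjusted *p* = 1.4e-04) was the smallest among the 6 upregulated genes. Exons of *Tmppe* on the same strand cover 5.49% of its exon bases, and *Tmppe* had 228 to 344 counts per library against 246 to 838 for *Glb1*.

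*Hexa* (ENSMUSG00000025232, chromosome 9, 59539540 to 59565109, plus strand) encodes the α subunit of β-hexosaminidase A, which acts next and turns GM2 into GM3. It had 344, 244 and 251 CPM in infarcts against 24.6, 19.9 and 30.5 CPM in contralateral cortices. This was the widest separation among the 8 genes, an 11.2-fold difference or a log2 fold change of 3.48 ± 0.22 (SE, edgeR adjusted *p* = 9.2e-07). Exons of *Tmem202*, on the opposite strand, overlie 12.8% of the exon bases of *Hexa*, and *Tmem202* had 7 to 37 counts per library against 306 to 4320 for *Hexa*.

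*Gla* (ENSMUSG00000031266, chromosome X, 134588149 to 134601125, minus strand) encodes α-galactosidase A, which removes the end galactose of globosides. Its expression was 68.5, 64.3 and 63.0 CPM in infarcts against 11.8, 10.3 and 10.2 CPM in contralateral cortices. *Gla* was the steadiest of the 8 genes within each region, at 65.2 ± 2.89 CPM and 10.7 ± 0.888 CPM. The log2 fold change was 2.60 ± 0.16 (SE, edgeR adjusted *p* = 7.2e-07).

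*Smpd1* (ENSMUSG00000037049, chromosome 7, 105554360 to 105558389, plus strand) encodes acid sphingomyelinase, which splits sphingomyelin into ceramide and phosphocholine. It had 67.9, 50.7 and 63.9 CPM in infarcts against 64.9, 61.7 and 85.1 CPM in contralateral cortices. The regions overlapped, and the means were 60.8 ± 9.03 CPM and 70.5 ± 12.7 CPM. The log2 fold change was -0.21, with a 95% confidence interval of -0.61 to 0.19 (adjusted *p* = 0.315, edgeR). The interval runs from 0.655-fold to 1.14-fold, so a 2-fold difference in either direction lies outside it.

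Compared per kilobase of their principal transcripts, the 8 genes stood in a different order in the 2 regions. In contralateral cortices *Psap* led with 292 CPM per kilobase and *Smpd1* followed with 29.2, and then came *Hexa* with 12.5 and *Gm2a* with 10.5, whose libraries overlapped. *Galc*, *Glb1*, and *Arsa* followed at 7.68, 7.56 and 7.35 CPM per kilobase with overlapping libraries, and *Gla* was last at 3.38. *Smpd1* was thus the most expressed hydrolase gene of the 6 in contralateral cortex. In infarcts *Psap* had 1608 CPM per kilobase, *Hexa* 140, *Gm2a* 49.9 and *Galc* 39.3, with overlap between *Gm2a* and *Galc* only. *Smpd1*, *Glb1*, and *Gla* lay at 25.2, 23.2 and 20.6 CPM per kilobase, with overlap between neighbors, and *Arsa* was last at 14.1. In rank among 45229 genes, *Hexa* moved from 4606 in contralateral cortices to 285 in infarcts and *Smpd1* from 2219 to 2453.

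Together the 8 genes took 0.675%, 0.441% and 0.528% of the gene counts of infarcts 1, 2 and 3, compared with 0.0923%, 0.0849% and 0.101% in contralateral cortices. The ratio of the mean shares was 5.91, and it was 5.15 when library sizes were scaled by TMM. Each infarct was above each contralateral cortex (*p* = 0.1, two-sided exact permutation test, the smallest *p* that 3 against 3 libraries can give). *Psap* supplied most of this sum, with 81.0% to 83.9% of the counts of the 8 genes in infarcts and 77.6% to 77.9% in contralateral cortices. Without *Psap* the ratio of the mean shares of gene counts, not scaled by TMM, was 4.47.

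To ask whether partners changed by equal amounts, ratios between 8 pairs of genes were computed within each library. Of these, 7 pairs are reported. The regions did not overlap for 5 of the 7, each with an exact permutation *p* of 0.1, the smallest possible, and 0.133 after Benjamini-Hochberg adjustment over the 8 pairs, so none passes a threshold of 0.05. The log2 ratio of *Gm2a* to *Hexa*, activator to enzyme, was 0.80 ± 0.24 (SD, *n* = 3) in contralateral cortices and -0.45 ± 0.07 in infarcts, a difference of -1.25. *Hexa* therefore had fewer CPM than *Gm2a* in each contralateral cortex and more in each infarct, but CPM do not allow for transcript length. The principal transcript is 1996 bases for *Hexa* and 4127 for *Gm2a*. Per kilobase, *Hexa* had 12.5 against 10.5 CPM for *Gm2a* contralaterally, with overlapping libraries, and 140 against 49.9 in infarcts. The ratio thus changed, but per kilobase *Hexa* was not below *Gm2a* in either region. *Galc* to *Arsa*, successive enzymes of sulfatide breakdown, went from 0.25 ± 0.75 to 1.63 ± 0.22.

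The fold change of *Psap* exceeded that of some of the enzymes. Its log2 ratio was higher in infarcts by 2.64 over *Smpd1*, by 1.47 over *Arsa* and by 0.81 over *Glb1*, with no overlap between regions. For *Galc* the regions overlapped, and the log2 ratio of *Psap* to *Galc* differed by 0.087 (*p* = 0.7, exact permutation test). The same held for *Gla*, with a difference of -0.16 (*p* = 0.5, exact permutation test). These last ratios ranged from 4.35 to 4.99 for *Galc* and from 5.67 to 6.39 for *Gla* over the 6 libraries.

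**Figure D2:**
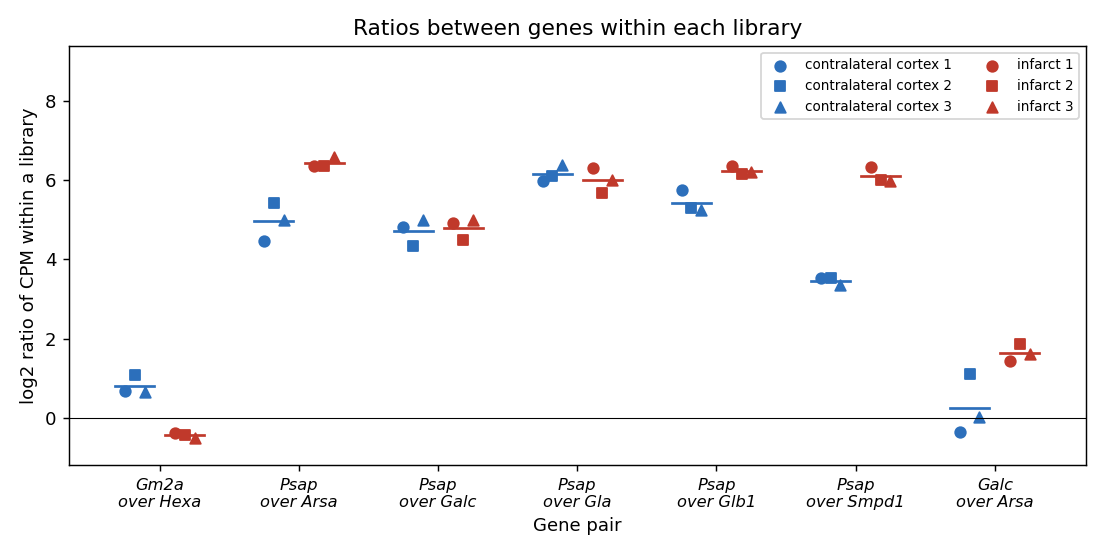
Log2 ratio of CPM between the genes of each of 7 pairs within each library, with contralateral cortices in blue, infarcts in red, and a bar at the mean of each region. The regions are apart for 5 pairs and overlap for *Psap* over *Galc* and *Psap* over *Gla*.

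Counts for the other gene lists stand beside the 25.7% of all tested genes upregulated and 20.9% downregulated. Of the other lysosomal hydrolases of sphingolipids, 4 of 6 were upregulated and 0 downregulated, with a median log2 fold change of 1.80. *Asah1*, acid ceramidase, which splits ceramide at the end of this pathway, had 184 ± 32.4 CPM in infarcts against 39.5 ± 2.44 CPM contralaterally, for a log2 fold change of 2.22 (edgeR adjusted *p* = 2.7e-06). The sialidase genes passed neither threshold. *Neu1* had 55.6 ± 6.03 CPM in infarcts against 51.9 ± 2.53 CPM contralaterally, for a log2 fold change of 0.10 (adjusted *p* = 0.573, edgeR), and *Neu4* had a log2 fold change of -0.60 (adjusted *p* = 0.148, edgeR).

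Genes that activate lysosomal enzymes or deliver them to the lysosome were upregulated in 7 of 11 cases and downregulated in 1, with a median log2 fold change of 1.55. *Grn*, progranulin, a binding partner of prosaposin, had 281 ± 62.4 CPM in infarcts against 17.7 ± 2.81 CPM contralaterally, for a log2 fold change of 3.99. *Ctsa*, the protective protein that forms a complex with *Glb1* and *Neu1* products, rose by 2.85, and *Igf2r*, a mannose phosphate receptor, by 2.39. Of the exon bases of *Ctsa*, 17.4% lie under exons of other genes on the opposite strand. *Sort1*, sortilin, a sorting receptor for prosaposin and progranulin, went the other way, from 1502 ± 114 CPM to 558 ± 140 CPM, a log2 fold change of -1.43 (adjusted *p* = 1.9e-04, edgeR). *Sumf1*, which activates sulfatases such as arylsulfatase A, had a log2 fold change of 1.66 and 76.4 ± 5.47 CPM in infarcts, compared with 24.2 ± 2.37 CPM. The smallest differences were 0.37 for *Gnptab* and 0.41 for *Gnptg*, the transferase that makes the mannose phosphate tag, and 0.86 for *Sumf2*, all higher in infarcts on the adjusted *p* alone and under the fold change threshold. Opposite-strand exons overlie 49.5% of the exon bases of *Gnptg* and 23.6% of those of *Sumf2*.

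Lysosomal hydrolases of substrates other than sphingolipids were upregulated in 14 of 19 cases and downregulated in 1, with a median log2 fold change of 2.18, against 2.30 for the 8 genes. *Lipa*, the acid lipase of cholesteryl esters, had 613 ± 93.0 CPM in infarcts against 16.6 ± 2.48 CPM contralaterally, for a log2 fold change of 5.21. *Gusb*, β-glucuronidase, and *Naglu*, a heparan sulfate hydrolase, rose by 4.29 and 3.77. *Ids*, iduronate sulfatase, had 576 ± 83.6 CPM in infarcts against 2113 ± 51.9 CPM contralaterally and was downregulated, at a log2 fold change of -1.87 (adjusted *p* = 1.2e-05, edgeR). The smallest differences were 0.13 for *Hgsnat*, 0.36 for *Gaa* and 0.52 for *Arsb*, with edgeR adjusted *p* values of 0.457, 0.0724 and 0.00794. *Hgsnat* and *Gaa* thus passed neither threshold, like *Smpd1* and *Neu1*.

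Of the hydrolases that act on sphingolipids outside the lysosome, 9 were tested. Of these, 1 was upregulated and 3 were downregulated, with a median log2 fold change of 0.46, and *Acer1* and *Enpp7* had 0 counts in every library at this depth. *Acer3*, alkaline ceramidase, had 77.5 ± 12.2 CPM in infarcts against 16.8 ± 1.68 CPM contralaterally, for a log2 fold change of 2.21. *Smpd3*, a neutral sphingomyelinase, fell by 1.79, *Gba2*, a nonlysosomal glucosylceramidase, by 1.36 and *Neu2*, a cytosolic sialidase, by 3.35 on the log2 scale. *Neu2* rested on 2, 7 and 9 counts in infarcts, compared with 76, 78 and 50. *Smpd4*, *Acer2*, and *Asah2* had the smallest differences, at -0.42, 0.46 and 0.48. Without infarct 2, infarct 3, contralateral cortex 2 or contralateral cortex 3, 2 genes of this list were upregulated in place of 1, the added gene being *Neu3*, a membrane sialidase whose log2 fold change was 0.97.

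The genes that make the same lipids were counted next, beside the 25.7% of all tested genes upregulated and 20.9% downregulated. Of the 4 genes of galactosylceramide and sulfatide synthesis, 1 was upregulated, with a median log2 fold change of 0.63. It was *Cers2*, the ceramide synthase of very long chains, at 164 ± 58.4 CPM in infarcts against 31.4 ± 8.08 CPM contralaterally, for a log2 fold change of 2.39 (adjusted *p* = 9.7e-05, edgeR). *Ugt8a*, which makes galactosylceramide, had a log2 fold change of 0.66 (adjusted *p* = 0.0169, edgeR), *Fa2h*, a fatty acid hydroxylase, 0.61 (adjusted *p* = 0.0934, edgeR), and *Gal3st1*, which makes sulfatide, -0.38 (adjusted *p* = 0.298, edgeR). Oligodendrocytes make most of these lipids, and their marker genes summed to 4349 to 6986 CPM in infarcts against 2183 to 2606 CPM in contralateral cortices, and 4 of 8 were upregulated.

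Ganglioside synthesis was the list with the most genes going down, with 5 of 10 downregulated and 0 upregulated, and a median log2 fold change of -0.83. The sialyltransferase genes *St8sia5*, *St8sia3*, and *St3gal5* fell by 2.76, 2.69 and 2.20 on the log2 scale. *St3gal5*, which makes GM3, had 25.2 ± 5.64 CPM in infarcts against 116 ± 18.2 CPM contralaterally. The others were *St8sia1* at -2.00 and *Ugcg*, glucosylceramide synthase, at -1.01, which dropped below the fold change threshold without infarct 2, infarct 3, contralateral cortex 2 or contralateral cortex 3, at -0.97 to -0.99. The smallest differences were 0.32 for *B3galt4*, -0.36 for *St3gal2* and -0.44 for *B4galnt1*, and that of *B3galt4* became -0.17 without infarct 3. Without infarct 1 or contralateral cortex 3, 1 gene, *B4galt5*, was upregulated.

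For ceramide and sphingomyelin synthesis, 5 of 14 tested genes were upregulated and 2 downregulated, compared with 25.7% and 20.9% of all tested genes. The median log2 fold change of the list was 0.50. *Sgms2*, a sphingomyelin synthase, had 43.4 ± 5.55 CPM in infarcts against 8.41 ± 0.886 CPM contralaterally, for a log2 fold change of 2.37. *Ormdl2*, a regulator of serine palmitoyltransferase, had a log2 fold change of 2.22, with exons of other genes on the other strand over 66.7% of its exon bases. The ceramide synthase genes *Cers1* and *Cers4* fell by 1.63 and 1.22, and *Gdf1* covers 42.5% of the exon bases of *Cers1* on the same strand. The differences of *Kdsr*, *Cers6*, and *Cers5* were small, at -0.03, -0.12 and 0.19, and those of *Kdsr* and *Cers6* turned to 0.17 and 0.08 when libraries were scaled by their totals. Without infarct 3 or contralateral cortex 2, that of *Kdsr* was 0.08 or 0.11.

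All 4 genes of the MiT/TFE family, transcription factors of lysosomal genes, were upregulated. *Tfeb* had 11.8 ± 1.90 CPM in infarcts against 2.06 ± 0.532 CPM contralaterally, for a log2 fold change of 2.53. *Mitf* and *Tfe3* had log2 fold changes of 2.51 and 1.08. *Tfec* counts were 97, 120 and 93 in infarcts against 2, 1 and 0 contralaterally, a ratio of 115 with a 95% exact counting interval of 38.9 to 560. That interval covers counting error only. The motif TCACGTG occurred before the start of 5 of 9 genes of enzyme activation and delivery with a promoter in the table (*Ctsa*, *Gnptg*, *Igf2r*, *Nagpa*, and *Sumf1*) and 3 of 15 hydrolases of other substrates (*Gaa*, *Naglu*, and *Sgsh*). It also occurred for 3 of 16 genes of ceramide and sphingomyelin synthesis and 1 of 10 sphingolipid hydrolases outside the lysosome, and for 0 of 2 other lysosomal sphingolipid hydrolases, 0 of 3 genes of galactosylceramide and sulfatide synthesis, 0 of 5 of ganglioside synthesis and 0 of 4 MiT/TFE factors. *Gaa* and *Gnptg* were among the genes that were not called. The longer palindrome was present for 0 genes in each of these lists.

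**Figure D3:**
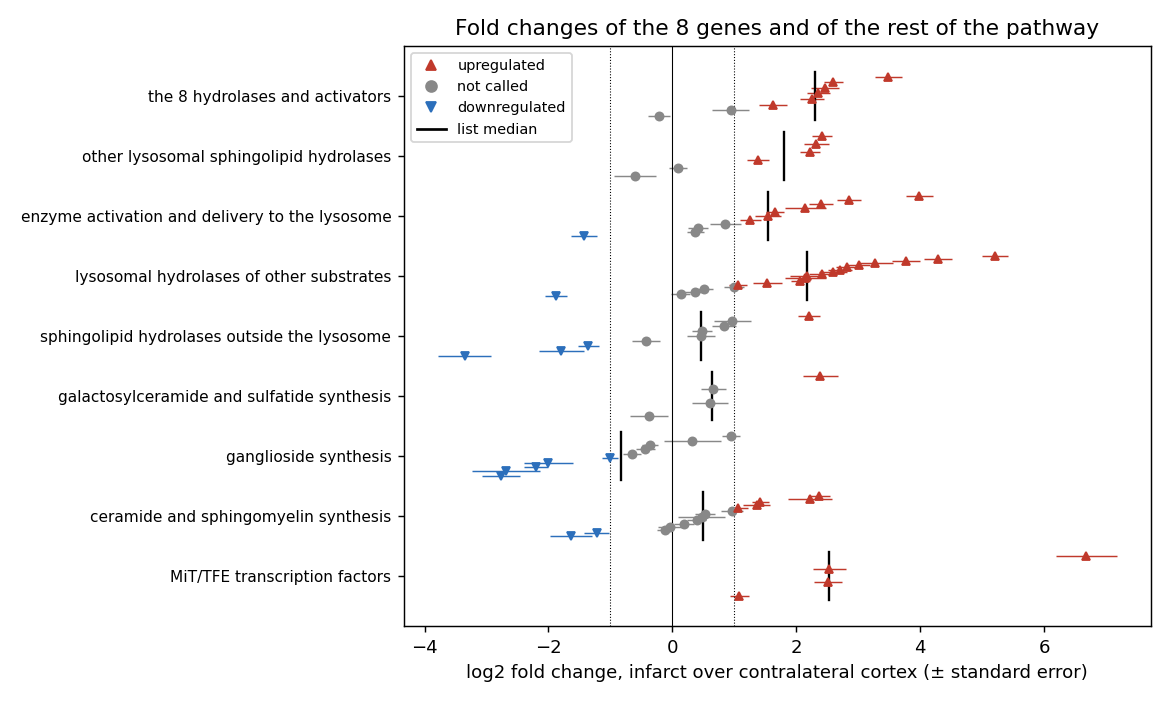
Log2 fold change of each tested gene, infarct over contralateral cortex, with its standard error as a horizontal line, by gene list. Red triangles are upregulated genes, blue triangles downregulated genes and gray circles genes not called, the dotted lines mark a 2-fold change and the black bars list medians, which run from -0.83 for ganglioside synthesis to 2.52 for the MiT/TFE factors.

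Cell type marker transcripts differed between regions, and in bulk tissue fewer cells of a type and less RNA per cell cannot be told apart. Of 12 microglia and macrophage marker genes 11 were upregulated, and the sum of the 12 was 6448 to 10249 CPM in infarcts against 299 to 391 CPM in contralateral cortices. *Lyz2* made up most of the infarct sum, with 7853, 6830 and 4665 CPM in infarcts 1, 2 and 3 against 13.7 to 23.4 CPM contralaterally. The size of the difference between these sums therefore rested largely on *Lyz2*. The marker not called was *P2ry12*, at a log2 fold change of -0.20. All 6 fibroblast markers were upregulated, with sums of 6927 to 8680 CPM and 146 to 189 CPM. Endothelial markers summed to 333 to 480 CPM in infarcts against 219 to 242 CPM in contralateral cortices, with 3 of 6 upregulated. Of 7 astrocyte markers 2 were upregulated and 1 downregulated, and their sum was 5098 to 7594 CPM in infarcts against 13501 to 14394 CPM contralaterally. *Slc1a2*, the downregulated gene, set the direction of this sum, since the other 6 markers summed to 2722 to 3672 CPM in infarcts against 1399 to 1709 CPM contralaterally. The part of these cell types in the results for the 8 genes was not tested.

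Markers of cells that might enter by infiltration or dissection were also counted. T cell markers summed to 23.5 to 99.5 CPM in infarcts, with *Cd3d* and *Cd8a* at 0 in contralateral cortices, and markers of B and plasma cells to 339 to 2378 CPM. Choroid plexus markers were low in both regions, at 15.1 to 24.7 CPM and 7.05 to 7.66 CPM, with *Ttr* at 0 in contralateral cortices. Skeletal muscle markers summed to 0.876 to 2.20 CPM in infarcts, where *Ckm* was at 0, and 9.18 to 11.7 CPM in contralateral cortices. Nearly all of the contralateral sum was *Acta1*, at 9.05 to 11.2 CPM, the only marker of this list that was tested. The other muscle markers had few counts and did not share its direction as a set. *Mylpf* had 7, 5 and 8 counts in infarcts against 0, 1 and 0 contralaterally, and *Tnnt3* had 1, 14 and 7 against 2, 0 and 1.

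Infarct 1 had the highest value of the 3 infarcts for all 8 genes, which was the case for 36.5% of all tested genes. It was also the case for 16 of 19 lysosomal hydrolases of other substrates and 9 of 11 genes of enzyme activation and delivery. The sum of the 8 genes was 6530, 4055 and 4837 CPM in infarcts 1, 2 and 3. Microglia and macrophage markers summed highest in infarct 1 as well, with 10 of 12 genes highest there, and neuronal markers lowest. T cell markers, all 5 tested, and markers of B and plasma cells, all 6, were also highest in infarct 1, with sums of 99.5, 37.3 and 23.5 CPM and of 2378, 950.5 and 339 CPM in infarcts 1, 2 and 3. By contrast, all 8 oligodendrocyte markers were highest in infarct 3, and the oligodendrocyte and astrocyte sums were lowest in infarct 1 among the infarcts. Without infarct 1 the 6 upregulated genes were still called. Over all libraries left out in turn, the log2 fold changes stayed at 2.27 to 2.64 for *Psap*, 2.06 to 2.37 for *Gm2a*, 2.23 to 2.49 for *Galc*, 1.45 to 1.81 for *Glb1*, 3.33 to 3.65 for *Hexa* and 2.56 to 2.66 for *Gla*. *Smpd1* was at -0.31 to -0.06 and was never called.

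**Figure D4:**
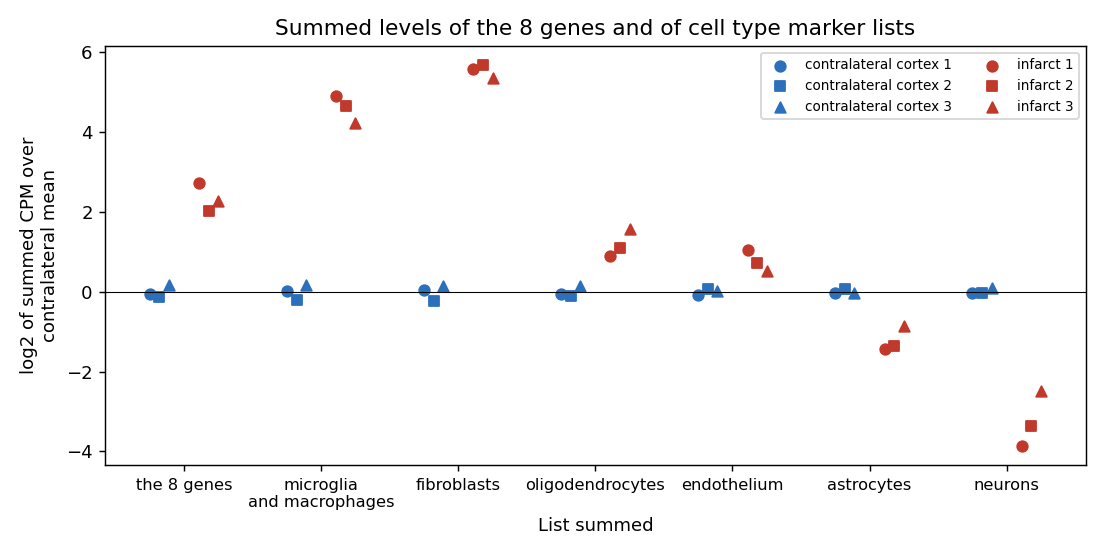
Sum of CPM over the 8 genes and over cell type marker lists in each library, as the log2 ratio to the contralateral mean of the same sum, with contralateral cortices in blue and infarcts in red. Among the infarcts, the 8 genes, microglia and macrophages, and endothelium are highest in infarct 1, whereas neurons, oligodendrocytes, and astrocytes are lowest there. Most of the microglia and macrophage sum in infarcts is *Lyz2*.

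The genes outside the 8 whose profile over the 6 libraries lay closest to their mean profile were *Acta2*, *Tpt1*, *Csf1r*, *Lmf2*, and *Eef2kmt*, with root mean square distances of 0.055, 0.076, 0.077, 0.080 and 0.088 on the log2 scale. *Csf1r*, the receptor that microglia and macrophages depend on, had 538, 405 and 434 CPM in infarcts against 119, 97.7 and 139 CPM in contralateral cortices. *Acta2*, an actin of smooth muscle and myofibroblasts, had 155, 100.1 and 119 CPM in infarcts against 31.6, 28.7 and 36.9 CPM in contralateral cortices. Their log2 fold changes were 1.96 and 1.94, and both had infarct 1 as the highest library. Both likenesses follow from the way these genes were picked, by closeness to the mean profile of the 8 genes.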

How the data were processed

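The authors prepared stranded mRNA libraries from 3 infarcts and 3 contralateral cortices. Per the methods and the submitters' processing notes, they used bcl2fastq 2.19, Trimmomatic 0.32, STAR 2.5.2b on GRCm38 and HTSeq, and deposited raw counts per Ensembl gene without normalization. The annotation and strand setting of the counting are not given in the sources used here, so exon overlap is stated beside the genes it affects. Tallies not tied to a gene (5 entries per table) were left out. They held 26.6% to 28.2% of tallied reads in infarct libraries and 32.0% to 34.3% in contralateral libraries. The cause of this difference between regions was not tested. Of the gene identifiers, 45229 were matched to GENCODE M21 and 849 were not. Replicates are labelled samples, and *p* values measure only the spread between them.

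Counts were fitted in R 4.3.3 with edgeR 4.0.16 (filterByExpr, TMM, robust glmQLFit and glmQLFTest, region as the only term), with Benjamini-Hochberg adjustment over 15554 genes. The biological coefficient of variation was 0.220. Pair ratios used log2 CPM with a prior count of 2, and exact permutation tests used SciPy 1.17.1. Tables were made with Python 3.11.15 and pandas 2.3.3, and plots with matplotlib 3.10.9. Per-kilobase levels used the longest APPRIS principal transcript. On simulated data with 15554 genes, 188 of 200 genes changed 4-fold were called in the right direction (94%), and 4 unchanged genes were called. The simulation raised and lowered equal numbers of genes, left all others unchanged, and gave every gene the same dispersion. It therefore did not test the calls where as many genes differ as in these data. Alternatives were DESeq2 1.42.0, limma 3.58.1 (voom), other scalings, filters and thresholds, a replicate block, and each library left out in turn.

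The genes and lists were chosen with earlier results of these data known. All 8 genes are named. From each other list the rule names genes called against the list's median, up to 3 with the largest and 3 with the smallest differences, all genes of 3 short lists, and the 5 nearest profiles. Some genes that the rule covers, and 1 of the pairs, are not reported here. *Sumf1*, *Ugcg*, *St8sia1*, *Neu3*, *B4galt5*, *Nagpa*, and *Sgsh* fall outside it and were named after their values were seen.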

Additional observations from a re-analysis of the deposited data

How the results depend on the processing

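Across 16 alternatives, the 6 upregulated genes among the 8 kept their direction and their call. Of 128 values for the 8 genes, 123 kept their direction and their call, and 5, all for *Arsa*, went from not called to called. Among the 123, *Arsa* no longer passed the adjusted *p* without contralateral cortex 2 or 3, at 0.0580 or 0.0586 (edgeR). *Arsa* was called with libraries scaled by their totals (1.13) and with no fold change threshold, and with infarct 2, infarct 3 or contralateral cortex 1 left out. Tested with glmTreat against a 2-fold change, its adjusted *p* was 0.632 (edgeR). *Smpd1* was not called under any of them. For the other genes of the lists and the nearest profiles, 1310 values were given and 2 could not be, because *Neu2* and *Tfec* do not have 10 counts in every library.

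Counts over all genes were 3999 upregulated and 3256 downregulated, and ranged from 2789 to 5324 and from 2329 to 4787. The lists together gave 36 and 12, with ranges of 32 to 49 and 10 to 15. With library totals, *Kdsr* and *Cers6* turned to 0.17 and 0.080 on the log2 scale. With each library left out, *B3galt4* ranged from -0.17 to 0.59 and *Kdsr* from -0.18 to 0.11. Likewise the log2 difference between *Psap* and *Galc* ranged from -0.099 to 0.24 and that between *Psap* and *Gla* from -0.32 to 0.0068. None of these passed a threshold with all libraries in, and the cause of the turns was not tested. With no fold change threshold, the list of ganglioside synthesis gave 8 downregulated genes, that of ceramide and sphingomyelin synthesis 8 upregulated genes and that of hydrolases outside the lysosome 4.

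The labels do not say that replicate numbers pair the samples, and the check for it did not settle whether they do: deviations of same-numbered libraries from their group means correlated at -0.19, 0.10 and 0.001. With the replicate number as a block, 3945 genes were upregulated and 3222 downregulated, including 6 of the 8 genes upregulated, and the exact *p* of the pair ratios could not go below 0.25. With 3 libraries a region, single-value permutation tests cannot give a *p* under 0.1.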
